A study of Mus musculus with 10 samples.

Results

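The genes described here are 10 mitotic kinases and partners, namely the kinases Aurka, Aurkb, Plk1, Nek2 and Mastl, the chromosomal passenger proteins Incenp, Birc5 and Cdca8, and the Aurora A cofactors Tpx2 and Bora. They were chosen by symbol, with earlier results of these data known, and matched to their Ensembl identifiers among 45232 gene entries. In serum-starved mouse fibroblasts without functional Lin37, 9 of these 10 genes were called higher than in the same cells with Lin37 restored, against 1.61% of all genes tested. Bora was not called, with a mean that was 1.53 times as high in KO cells. Its replicates overlapped between the groups over both clones, though not within a clone.

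RNA was sequenced from NIH3T3 cells, an immortalized mouse fibroblast line, that were kept for 60 h in medium with no serum and are labelled as quiescent (G0). All cells carried a Lin37 knockout, and came from 2 clones, 1 mutated at exon 4 and 1 at exon 6. Each clone held a doxycycline-inducible episome, a plasmid kept outside the chromosomes, that expressed luciferase (KO) or wild-type Lin37 (rescue), and the cells were selected with hygromycin and sorted for the GFP of the episome. The exon 4 clone gave 2 KO and 2 rescue libraries, and the exon 6 clone gave 3 of each, of which library 3 is labelled a technical replicate of library 2. A group is therefore 2 single-cell clones with an added transgene, and no cells with intact Lin37 genes were among these libraries. Lin37 itself was between 0.268 and 0.417 RPKM in KO and between 2.12 and 5.11 RPKM in rescue libraries, where transcripts of the episome may add to the count.

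The values that the authors deposited are RPKM (read counts per length of the gene and per size of the library). Each library was rescaled here by a median-of-ratios factor, which ranged from 0.324 to 2.70, and all levels below are rescaled RPKM. Libraries 2 and 3 of the exon 6 clone were averaged, which left 4 KO and 4 rescue replicates, and what the replicates of a clone share beyond their label (cultures or passages) is not stated. Whole reads could not be recovered from the values, since in each library only 17.4% to 22.7% of low values fell within 0.05 reads of a whole number. The depth is unknown and no counting error is given for the low rescue levels. The summed level of fibroblast markers was high in every library, at 527 to 804 RPKM in KO against 560 to 874 RPKM in rescue cells. Col1a1 and Fn1 had the highest means of these markers. Thy1 was as low as 0.531 RPKM in a KO replicate and 1.00 RPKM in a rescue replicate. The summed markers of other cell types reached at most 1.48 RPKM in KO against 1.09 RPKM in rescue cells (leukocyte), 0.420 against 0.537 RPKM (epithelial), 0.350 against 0.235 RPKM (muscle) and 0.120 against 0.184 RPKM (endothelial). Some of these sums are as high as single mitotic kinases, and the leukocyte sum is mostly Cd68, a lysosomal gene of macrophages, at 1.06 ± 0.321 RPKM in KO against 0.774 ± 0.126 RPKM in rescue cells (SD, n = 4 each; adjusted p = 0.640, limma). Their part in the results was not tested.

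Mitotic kinases drive cells through division. Aurora A, encoded by Aurka, works at centrosomes and spindle poles, where Tpx2 activates it and brings it to microtubules, while Bora helps Aurora A to activate Polo-like kinase 1 before mitosis. Aurora B, encoded by Aurkb, is the enzyme of the chromosomal passenger complex, in which Incenp is the scaffold and Birc5 (survivin) and Cdca8 (borealin) bring the complex to centromeres. Nek2 separates the centrosomes, and Mastl (Greatwall) restrains the phosphatase PP2A-B55 so that mitotic phosphorylation lasts. Genes of this kind are transcribed late in the cell cycle and are kept low in quiescent cells by the DREAM complex, of which Lin37 is a subunit. DREAM reaches many of their promoters through the cell cycle genes homology region (CHR), often near CCAAT boxes, and reaches others through E2F sites.

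RefSeq promoter windows of GRCm38.p6, from 250 bases before to 50 bases after the gene start, were used for Aurka, Birc5, Mastl, Nek2 and Plk1. The CHR was searched as TTTGAA and TTCGAA on both strands. It matched in 2 of the 5 windows, those of Aurka and Plk1, compared with 19.2% of all 32851 windows. The matching stretches are shown because the CHR is the known DREAM element of late cell cycle genes, and the capitals mark the match.
Aurka, CHR at base 33 after the start (chr2:172370521-172370550, minus strand): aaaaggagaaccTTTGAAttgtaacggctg
Plk1, CHR at base 31 after the start (chr7:122159453-122159482, plus strand): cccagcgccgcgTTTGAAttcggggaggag
In both windows the match lay downstream of the RefSeq start. The GENCODE start of Aurka lies 35 bases downstream of its RefSeq start, so that the match of Aurka begins upstream of the GENCODE start. The CHR-like TTTAAA matched in the windows of Aurka, Birc5 and Plk1, compared with 13.2% of all windows. The stretches of Aurka and Birc5 are given here, and those of Plk1 lie within its upstream sequence below.
Aurka, TTTAAA at base 18 after the start (chr2:172370536-172370565, minus strand): tttgactcctatTTTAAAaggagaaccttt
Birc5, TTTAAA at base 220 before the start (chr11:117849005-117849034, plus strand): cagcggacatgcTTTAAAgaggtgccccag

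CCAAT, searched on both strands, matched in 4 of the 5 windows, all but that of Birc5, compared with 37.4% of all windows. The 100 bases before the start are shown for the 3 genes with matches in that stretch, with CCAAT and TTTAAA in capitals.
Aurka (chr2:172370571-172370670, minus strand): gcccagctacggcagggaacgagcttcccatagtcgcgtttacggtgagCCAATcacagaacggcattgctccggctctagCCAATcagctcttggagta
Nek2 (chr1:191821373-191821472, plus strand): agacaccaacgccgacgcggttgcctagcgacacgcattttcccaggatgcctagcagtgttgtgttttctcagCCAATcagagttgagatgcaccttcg
Plk1 (chr7:122159335-122159434, plus strand): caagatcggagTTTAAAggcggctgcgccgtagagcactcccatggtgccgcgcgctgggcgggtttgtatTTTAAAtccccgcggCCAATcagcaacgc
Aurka held 2 CCAAT boxes before its start. Plk1 held TTTAAA at 89 and 29 bases before the start and CCAAT at 14 bases before it. The E2F site was searched on both strands as TTCCCGC, in the form TTCGCGC, in the form TTGCCGC and in the form TTGGCGC, and matched in 0 of the 5 windows and in 9.57% of all windows. The gene start in GENCODE M21 lay within 35 bases of the RefSeq start for each of the 5 genes. That of Nek2 lies 29 bases upstream of its RefSeq start. The CCAAT of Nek2 at 26 bases before the RefSeq start thus lies downstream of the GENCODE start. A match describes letters in these windows and not a bound site, and binding was not measured in these libraries.

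**Figure D1:**
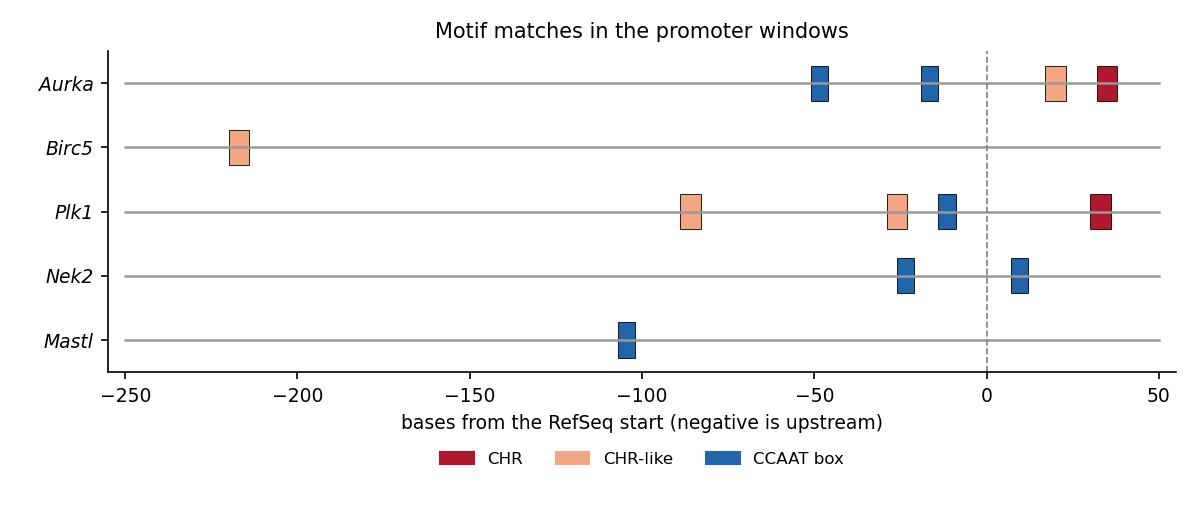
Positions of the motif matches in the promoter windows of 5 of the genes, with bases from the RefSeq start on the horizontal axis and the dashed line at the start. Aurka and Plk1 hold a CHR (dark red) downstream of the start, at bases 33 and 31, and CCAAT boxes (blue) stand in all windows but that of Birc5.

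Aurka and Tpx2 were both higher in KO cells. Aurka lies on chromosome 2 of GRCm38 (172356190 to 172370535, minus strand). Its level was 1.08 and 1.56 RPKM in KO cells of the exon 4 clone, and 1.70, 1.02 and 1.78 RPKM in those of the exon 6 clone. In rescue cells it was 0.399 and 0.138 RPKM in the exon 4 clone, and 0.0531, 0.0854 and 0.298 RPKM in the exon 6 clone. Every KO library was above every rescue library. Over both clones, Aurka was 1.44 ± 0.266 RPKM in KO against 0.195 ± 0.147 RPKM in rescue cells (mean ± SD, n = 4 each), which is 7.35-fold. The log2 change of RPKM + 0.5, the scale of all tests here, was 1.49 (SE 0.17, adjusted p = 0.00225, limma with Benjamini-Hochberg adjustment over 16866 genes and clone as a covariate). Adding 0.5 RPKM makes this change smaller than the ratio of the means, and with 0.1 RPKM added it was 2.49.

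Tpx2 lies on the same chromosome (152847964 to 152895321, plus strand). It was 2.18 and 2.40 RPKM in KO cells of the exon 4 clone, and 2.01, 2.13 and 2.07 RPKM in those of the exon 6 clone. The rescue libraries held 0.200 and 0.425 RPKM in the exon 4 clone, and 0.181, 0.164 and 0.219 RPKM in the exon 6 clone. The KO libraries lay close together, and no rescue library came near them. The means were 2.17 ± 0.169 RPKM in KO against 0.249 ± 0.117 RPKM in rescue cells (SD, n = 4 each), and the log2 change was 1.84 (SE 0.11, adjusted p = 9.86e-05, limma). With 0.5 RPKM added, it was the 21st largest log2 change of all genes tested.

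Bora, on chromosome 14 (99046222 to 99074540, plus strand), was the lowest of the 10 genes in KO cells. Its KO libraries held 0.205 and 0.218 RPKM in the exon 4 clone, and 0.0983, 0.0417 and 0.196 RPKM in the exon 6 clone. Its rescue libraries held 0.124 and 0.194 RPKM in the exon 4 clone, and 0.0402 and 0.120 RPKM in the exon 6 clone, where library 3 was listed at 0. The ranges overlapped over both clones. Within each clone, after averaging of libraries 2 and 3, both KO replicates lay above both rescue replicates. KO was thus the higher in all 4 pairs of replicates with the same number. In the second pair of the exon 6 clone this rested on averaging libraries 2 and 3. Library 2 alone was higher in rescue cells. The means were 0.160 ± 0.0602 and 0.105 ± 0.0696 RPKM (SD, n = 4 each), with a log2 change of 0.13 (95% interval -0.10 to 0.36, adjusted p = 0.779, limma). At levels this close to 0 the scale compresses differences, and with 0.1 RPKM added the log2 change was 0.38.

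The genes of the chromosomal passenger complex were all higher in KO cells, and Incenp stood out by its level. Incenp lies on chromosome 19 (9872296 to 9899551, minus strand). It was 6.14 and 5.61 RPKM in KO cells of the exon 4 clone, and 7.03, 6.34 and 7.24 RPKM in those of the exon 6 clone. In rescue cells it was 1.11 and 1.47 RPKM in the exon 4 clone, and 1.27, 1.42 and 1.91 RPKM in the exon 6 clone. It was the most abundant of the 10 genes in each group, at 6.39 ± 0.643 RPKM in KO against 1.38 ± 0.241 RPKM in rescue cells (SD, n = 4 each). Its log2 change of 1.88 (SE 0.11, adjusted p = 9.48e-05, limma) was the 16th largest among all genes tested. The ratio of the means, 4.64-fold, was lower than that of the other 8 genes that were called, since Incenp kept 21.6% of its KO level in rescue cells.

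Aurkb, on chromosome 11 (69045647 to 69051664, plus strand), was 1.05 and 1.10 RPKM in KO cells of the exon 4 clone, and 1.46, 1.02 and 1.43 RPKM in those of the exon 6 clone. Its rescue libraries held 0.242 and 0.109 RPKM in the exon 4 clone, and 0.0554, 0.121 and 0.175 RPKM in the exon 6 clone. The groups did not overlap, and the means were 1.21 ± 0.183 and 0.138 ± 0.0786 RPKM (SD, n = 4 each). The log2 change was 1.42 (SE 0.13, adjusted p = 0.000679, limma), and the KO replicate was 4.35 to 26.3 times its same-numbered rescue replicate.

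Birc5, also on chromosome 11 (117849251 to 117855743, plus strand), was 1.25 RPKM in both KO libraries of the exon 4 clone, and 1.39, 1.67 and 1.47 RPKM in those of the exon 6 clone. The rescue libraries of the exon 4 clone held 0.505 and 0.239 RPKM. Those of the exon 6 clone held 0.0975, 0.145 and 0.229 RPKM, so that the higher rescue values came from the exon 4 clone. The means were 1.37 ± 0.149 and 0.257 ± 0.175 RPKM (SD, n = 4 each), with a log2 change of 1.32 (SE 0.16, adjusted p = 0.00268, limma).

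Cdca8 lies on chromosome 4 (124918465 to 124939311, minus strand). The KO libraries held 1.01 and 1.24 RPKM in the exon 4 clone, and 1.07, 0.995 and 1.40 RPKM in the exon 6 clone. The rescue libraries held 0.0878 and 0.148 RPKM in the exon 4 clone, and 0.110, 0.231 and 0.134 RPKM in the exon 6 clone. The means were 1.13 ± 0.107 and 0.132 ± 0.0417 RPKM (SD, n = 4 each), a difference of 8.56-fold with a log2 change of 1.37 (SE 0.10, adjusted p = 0.000254, limma). The lncRNA 9930104L06Rik, which overlaps 4.48% of the Cdca8 exon bases on the other strand, was 1.10 ± 0.370 RPKM in KO against 1.29 ± 0.347 RPKM in rescue cells (SD, n = 4 each).

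The levels of the passenger genes were also compared within each replicate. Incenp was 5.33 ± 0.446 times Aurkb, Birc5 was 1.14 ± 0.139 times Aurkb, and Cdca8 was 0.950 ± 0.163 times Aurkb in KO replicates (SD, n = 4 each). In rescue replicates the same ratios were 13.1 ± 7.59, 1.83 ± 0.418 and 1.23 ± 0.667 (SD, n = 4 each). These rescue ratios rest on low Aurkb levels, whose counting error is unknown.

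Plk1, the kinase of the Polo family that acts from mitotic entry to cytokinesis, lies on chromosome 7 (122159439 to 122169873, plus strand). It was 0.752 and 0.602 RPKM in KO cells of the exon 4 clone, and 1.15, 0.963 and 1.00 RPKM in those of the exon 6 clone. The rescue libraries held 0.254 and 0.0264 RPKM in the exon 4 clone, and 0.150, 0.0782 and 0.183 RPKM in the exon 6 clone. The groups did not overlap, although the rescue replicates of the exon 4 clone lay far apart. The means were 0.871 ± 0.242 and 0.140 ± 0.0933 RPKM (SD, n = 4 each), with a log2 change of 1.09 (SE 0.14, adjusted p = 0.00513, limma). Of the 31-base words in Plk1 transcripts, 18.7% occur in other genes, most of them in the pseudogene Plk-ps1, which was listed at 0.725 ± 0.293 RPKM in KO against 0.227 ± 0.0532 RPKM in rescue cells (SD, n = 4 each). How reads were divided between Plk1 and Plk-ps1 cannot be told from the deposited values, so the level of Plk1 is uncertain by that share. An antisense gene, Gm44985, overlaps 7.09% of its exon bases.

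Nek2, on chromosome 1 (191821444 to 191833050, plus strand), had the largest ratio of the 10 genes. It was 0.850 and 0.666 RPKM in KO cells of the exon 4 clone, and 1.15, 1.05 and 1.39 RPKM in those of the exon 6 clone. In rescue cells it was 0.0906 and 0.0524 RPKM in the exon 4 clone, and 0.0387, 0.00840 and 0.132 RPKM in the exon 6 clone. It kept 6.47% of its KO level in rescue cells, and the KO replicate was 9.38 to 29.8 times its same-numbered rescue replicate. The log2 change was 1.37 (SE 0.12, adjusted p = 0.000772, limma). The antisense gene Gm38037 overlaps 6.60% of the Nek2 exon bases and was 0.173 ± 0.0645 RPKM in KO against 0.0214 ± 0.0177 RPKM in rescue cells (SD, n = 4 each). The counting was not stated to use strand, so reads of these overlapping genes cannot be told apart.

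Mastl, on chromosome 2 (23115606 to 23156024, minus strand), had the smallest log2 change of the 9 genes that were called. It was 0.553 and 0.770 RPKM in KO cells of the exon 4 clone, and 0.523, 0.449 and 0.447 RPKM in those of the exon 6 clone. The rescue libraries held 0.0667 and 0.150 RPKM in the exon 4 clone, and 0.0317, 0.0232 and 0.0864 RPKM in the exon 6 clone. The groups did not overlap. The means were 0.573 ± 0.138 and 0.0758 ± 0.0514 RPKM (SD, n = 4 each), which is 7.57-fold, with a log2 change of 0.89 (SE 0.11, adjusted p = 0.00297, limma).

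**Figure D2:**
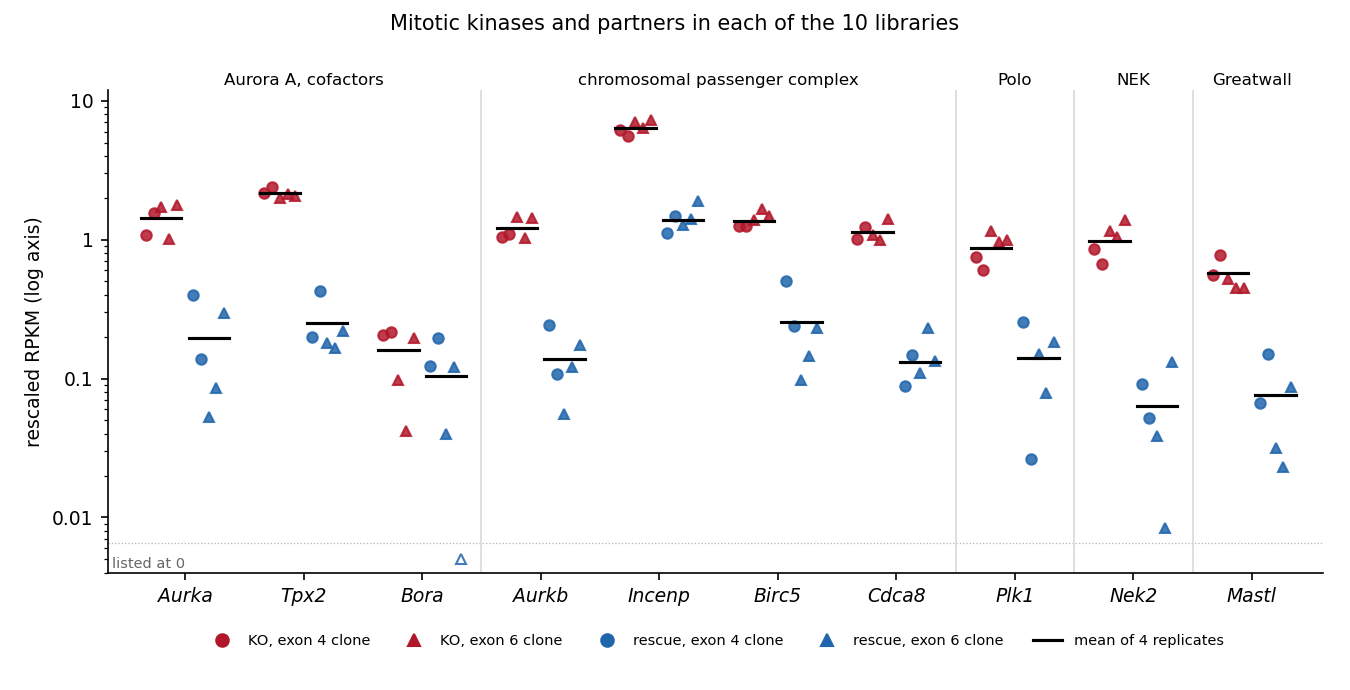
Level of each gene in each of the 10 libraries, in rescaled RPKM on a log axis, with KO in red, rescue in blue, the exon 4 clone as circles, the exon 6 clone as triangles and a bar at the mean of the 4 replicates. The KO and rescue libraries separate for every gene except Bora, and Incenp lies highest in each group.

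Over both clones, 9 of the 10 genes were called higher in KO cells and 0 were called lower, against 1.61% and 0.083% of the 16866 genes tested. All 10 passed the filter on low values, a mean of at least 0.1 RPKM, although the rescue means of Nek2 and Mastl lay under it. The 4 KO and 4 rescue replicates did not overlap for 9 of the 10 genes, compared with 3.11% of all genes tested, and KO was the higher in all 4 same-numbered pairs for 10 of 10 genes, compared with 8.96%. The median log2 change was 1.37 for the 10 genes and -0.03 for all genes tested. The 9 calls held when replicate numbers were fitted as a block and in all but 1 of the alternatives. That 1 was a minimum level of 1 RPKM, under which Incenp and Tpx2 were the genes still tested and both were called. With the block, the adjusted p of the 9 genes ran from 0.000473 (Tpx2) to 0.00963 (Aurka) in limma. Without rescaling, the median of all genes rose to 0.64, and relative to that median the 9 genes changed by 0.66 (Mastl) to 2.07 (Incenp) and Bora by -0.19. A single entry, Gm10800 or CT010467.1, held 17.1% to 34.7% of the summed deposited RPKM in KO libraries. In rescue libraries Gm10800 held 23.8% to 44.6%. The part of these entries in the shift of the median was not tested.

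In bulk RNA, more cells in a late cell cycle phase and more RNA per cell cannot be told apart. The KO level was called higher for 4 of 8 general proliferation markers, against 1.61% of all genes tested. Over the alternatives this count ran from 2, without KO replicate 2 of the exon 6 clone, to 7 with the RPKM as deposited. The summed level of the 8 markers was 13.4 to 17.6 RPKM in KO against 4.03 to 5.92 RPKM in rescue libraries. Top2a, the topoisomerase of condensing chromosomes, was 5.67 ± 1.03 and 1.09 ± 0.518 RPKM (SD, n = 4 each). The other 3 markers called higher were Mcm5 and Mcm2 of the replicative helicase, with log2 changes of 1.99 and 0.86, and Mki67, with 1.13. Pcna, the polymerase clamp, was 1.09 ± 0.170 and 0.675 ± 0.223 RPKM (adjusted p = 0.176, limma), and Ccne1, the cyclin of S phase entry, was 0.696 ± 0.305 and 0.268 ± 0.0692 RPKM (adjusted p = 0.144, limma). Rrm2, a subunit of ribonucleotide reductase, was 0.716 ± 0.444 and 0.171 ± 0.0533 RPKM (adjusted p = 0.0603, limma), and Ccne2, the other E-type cyclin, had the lower mean in KO cells, at 0.187 ± 0.0307 and 0.265 ± 0.130 RPKM (adjusted p = 0.811, limma). The part of these differences in the level of the mitotic kinases was not tested.

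The genes were ordered by mean level in each group, and Incenp came first in both. In KO cells, the order by mean was Incenp, Tpx2, Aurka, Birc5, Aurkb, Cdca8, Nek2, Plk1, Mastl and Bora. The replicates of Incenp did not overlap those of Tpx2, those of Tpx2 did not overlap those of Aurka, and those of Mastl did not overlap those of Bora, while every other neighbouring pair overlapped. In rescue cells the order was Incenp, Birc5, Tpx2, Aurka, Plk1, Aurkb, Cdca8, Bora, Mastl and Nek2, and Incenp was the gene whose replicates did not overlap those of the next. By mean, Nek2 stood 7th in KO and 10th in rescue cells, and Bora stood 10th and 8th. Neighbouring places below Incenp are not resolved in rescue cells, since the replicates overlap.

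Each clone was also tested on its own contrast in a fit over all 4 groups. In the exon 4 clone, 5 of the 10 genes were called higher (Tpx2, Nek2, Aurkb, Incenp and Cdca8), against 0.599% of all genes. With the replicate block, Aurkb was no longer called (adjusted p = 0.0612, limma), which left 4, against 0.445%. In the exon 6 clone, 8 genes were called, all but Mastl and Bora, against 1.03% of all genes. There the block took away Aurka (adjusted p = 0.0613, limma) and left 7, against 0.824%.

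The log2 changes themselves were positive in each clone for each of the 10 genes. They ran from 0.11 (Bora) to 1.84 (Incenp) in the exon 4 clone, and from 0.15 (Bora) to 1.92 (Incenp) in the exon 6 clone. With 0.1 RPKM added, the largest were 2.59 (Tpx2) in the exon 4 and 3.07 (Nek2) in the exon 6 clone. At an unadjusted p under 0.05, 9 of the 10 genes differed in each clone, compared with 8.92% (exon 4 clone) and 6.44% (exon 6 clone) of all genes, in either direction. Mastl had an adjusted p = 0.0731 in the exon 4 and 0.0718 in the exon 6 clone (limma), and passed where both clones were tested together. The exon 4 clone fitted alone gave no call among the 10 genes and none higher among 18751 genes, where 9 of the 10 and 2.27% of all genes were higher at an unadjusted p under 0.05. The exon 6 clone fitted alone gave 9 calls of 9 genes tested, against 1.24%, and Bora fell under its minimum level.

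An interaction term of clone with genotype tested whether the clones responded differently, and gave 0 calls among the 10 genes and 0 among all genes (limma). At an unadjusted p under 0.05, 2 of the 10 genes and 4.06% of all genes differed. These were Birc5, whose log2 change was 0.60 larger in the exon 6 clone (95% interval 0.02 to 1.18), and Nek2, whose change was 0.47 larger (95% interval 0.01 to 0.93), both with an adjusted p = 0.997 (limma). The intervals of the other 8 genes included 0 and reached from -0.60 (Mastl) to 1.22 (Aurka), so that differences within these intervals are not excluded. Compared between the clones within a group, 0 of the 10 genes were called among rescue cells, against 3.15% of all genes, and 0 among KO cells, against 2.88%. At an unadjusted p under 0.05, 1 gene differed in each, against 21.7% of all genes among rescue and 17.6% among KO cells. Birc5 was lower in rescue cells of the exon 6 clone than of the exon 4 clone by 0.43 on the log2 scale (adjusted p = 0.217, limma). Nek2 was higher in KO cells of the exon 6 clone by 0.43 (adjusted p = 0.166, limma).

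**Figure D3:**
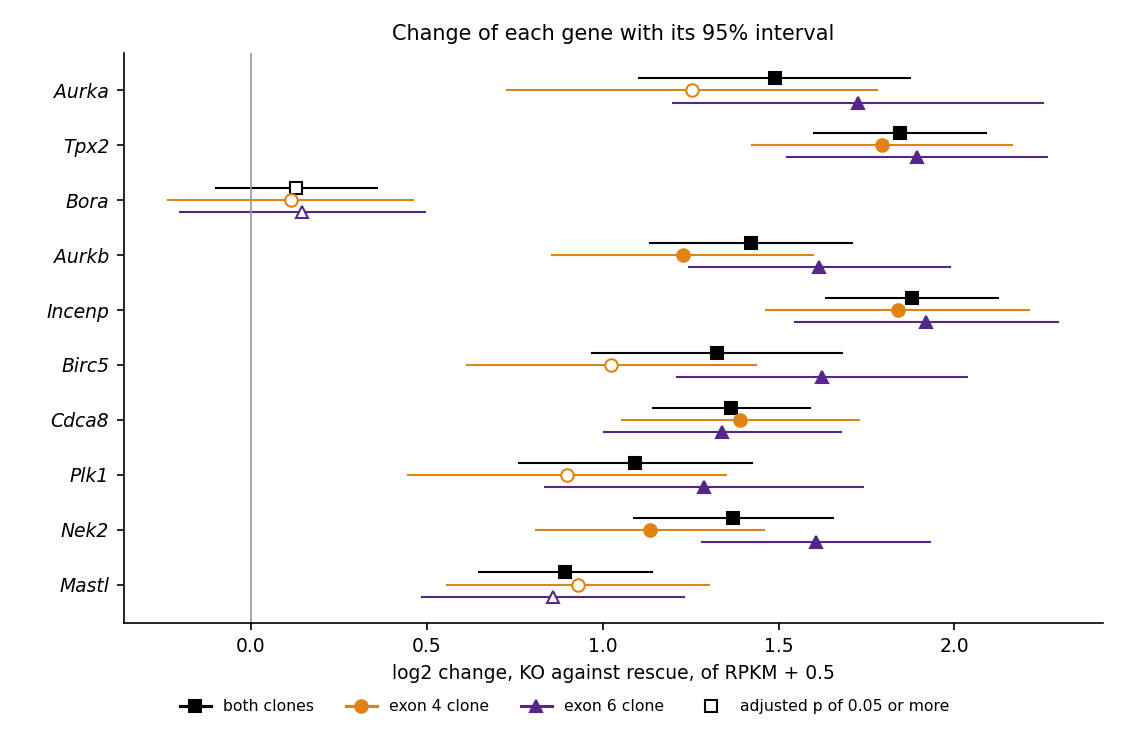
Log2 change of RPKM + 0.5 in KO against rescue cells for each gene (points) with its 95% interval (lines), over both clones and in each clone, where open symbols have an adjusted p of 0.05 or more. All points but those of Bora lie at 0.86 or above, and the intervals of the clones overlap for every gene.

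The technical replicates show how far the low levels can be trusted. Library 3 of the exon 6 clone was above library 2 for 7 of the 10 genes in KO and for 8 of 10 in rescue cells, after rescaling. Nek2 was 0.00840 RPKM in library 2 and 0.132 RPKM in library 3 of the rescue cells, and Aurka was 0.0854 and 0.298 RPKM. In KO cells, Aurka was 1.02 and 1.78 RPKM in these libraries. Leaving out either library kept the 9 calls over both clones, the 5 of the exon 4 clone and the 8 of the exon 6 clone, an alternative chosen after the values were seen.

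Other kinases of the same families were tested for the same comparison, from a list of 15. Of these, 10 were tested and 1 was called higher, against 1.61% of all genes tested. This was Plk4, the kinase that starts centriole duplication. It was 0.884 ± 0.122 RPKM in KO against 0.148 ± 0.147 RPKM in rescue cells (SD, n = 4 each), with a log2 change of 1.12 (SE 0.16, adjusted p = 0.00781, limma). With no minimum level, Plk4 was not called. Plk2, a stress-responsive Polo kinase, was far more abundant and was 27.4 ± 5.44 and 30.2 ± 9.90 RPKM (SD, n = 4 each). Plk3 was 1.42 ± 0.272 and 1.27 ± 0.327 RPKM (SD, n = 4 each). Of the 7 other NEK kinases that were tested, 0 were called. For so few genes this is near the 1.61% and 0.083% of all genes called higher and lower. Their log2 changes lay between -0.14 and 0.09. Nek9 and Nek7, which also act at the mitotic spindle, were 3.72 ± 0.837 and 2.16 ± 0.288 RPKM in KO against 4.09 ± 1.04 and 2.44 ± 0.454 RPKM in rescue cells (SD, n = 4 each). Aurkc, the germ cell Aurora kinase, had a mean of 0.0146 RPKM in KO against 0.0273 RPKM in rescue cells and was not tested.

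Partners and substrates of each kinase were described from lists that were chosen with earlier results of these data known. Their counts are given beside the 1.61% of all genes called higher and are no test of the lists. Of 9 tested partners of Aurora A, 5 were called higher and the median log2 change was 0.67. Tacc3, which Aurora A brings to spindle microtubules, had a log2 change of 1.94, with 3.04 ± 0.262 RPKM in KO against 0.431 ± 0.166 RPKM in rescue replicates (SD, n = 4 each). The spindle motor Kif11 changed by 1.51, the Aurora A-binding protein Aunip by 1.64, the spindle assembly factor Hmmr by 1.02 and the centrosome scaffold Cep192 by 0.67. Aunip and Kif11 passed the minimum level through their KO cells, with rescue means of 0.0131 and 0.0721 RPKM. The adaptor genes Ajuba and Nedd9, also linked to Aurora A activation, had log2 changes of 0.17 and -0.13 and were not called.

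Among genes that dock the passenger complex or are its targets, 7 of 11 tested were called higher, with a median of 0.94. The kinases that mark its docking sites on histones, Bub1 and Haspin, changed by 1.37 and 0.94, and the centromere protector Sgo2a by 0.97. The kinesins Kif20a, which carries the complex to the spindle midzone, and Kif2c, an Aurora B substrate, changed by 1.87 and 1.27, and the midzone protein Racgap1 by 1.27. Of the called genes, Bub1, Kif2c, Sgo2a and Sgo1 passed the minimum level through their KO cells. Their rescue means were 0.0876, 0.0506, 0.0991 and 0.0539 RPKM. Psrc1 fell just short of the threshold, at 5.31 ± 0.908 RPKM in KO against 3.18 ± 0.242 RPKM in rescue cells (adjusted p = 0.0507, limma), and passed it with the replicate block (adjusted p = 0.0188, limma). The heterochromatin gene Cbx1 was 3.41 ± 0.341 and 3.91 ± 0.241 RPKM (SD, n = 4 each).

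Of 14 tested partners and targets of Plk1, 8 were called higher, with a median of 0.83. Bub1b, the checkpoint kinase, changed by 2.14, from 0.185 ± 0.0696 to 2.53 ± 0.427 RPKM (SD, n = 4 each). Pkmyt1, an inhibitory kinase of Cdk1, changed by 1.86, and Cdc25c, the phosphatase that removes this inhibition, by 1.49, so that genes of opposite action on Cdk1 were higher together. The cytokinesis genes Ect2 and Cep55 changed by 1.66 and 1.30, and Clspn, a checkpoint mediator that Plk1 marks for destruction, by 1.17. Of the called genes, Cdc25c and Ercc6l passed the minimum level through their KO cells, with rescue means of 0.0807 and 0.0601 RPKM. Wee1 was 1.09 ± 0.374 and 0.519 ± 0.262 RPKM (adjusted p = 0.162, limma), and the centrosome gene Kiz was 1.23 ± 0.163 and 1.48 ± 0.127 RPKM (adjusted p = 0.659, limma).

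Of 10 tested NEK2 partners, 2 were called higher, with a median of 0.02. These were the kinetochore gene Ndc80, with 1.52 ± 0.244 RPKM in KO against 0.118 ± 0.153 RPKM in rescue cells (SD, n = 4 each) and a log2 change of 1.73, and the checkpoint gene Mad1l1, with a log2 change of 0.59. The count was 1 with no minimum level and when any replicate other than rescue replicate 2 of either clone was left out. The phosphatase Ppp1ca, which opposes Nek2, was 21.4 ± 2.75 and 20.2 ± 2.44 RPKM, and the kinase Stk3, which acts upstream of it, was 5.77 ± 1.60 and 6.79 ± 2.18 RPKM (SD, n = 4 each). Of 8 genes of the Greatwall pathway, 0 were called in either direction. For so few genes this is near the 1.61% and 0.083% of all genes called higher and lower. Their log2 changes lay between -0.02 and 0.18. The PP2A scaffold Ppp2r1a was 7.87 ± 0.234 and 8.07 ± 1.41 RPKM, and the catalytic subunit Ppp2ca was 4.94 ± 0.313 and 4.84 ± 0.459 RPKM (SD, n = 4 each). The Greatwall substrates Ensa and Arpp19, named after their values were seen, had log2 changes of 0.10 and 0.03.

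The switch that starts mitosis was described next to the kinases. Of 7 tested genes, 6 were called higher, against 1.61% of all genes, with a median of 1.47. Cdc20, the activator of the anaphase-promoting complex, changed by 2.14 and the transcription factor Foxm1 by 2.05, the latter from 0.490 ± 0.0271 to 3.63 ± 0.489 RPKM (SD, n = 4 each). Cdk1 and Ccna2 changed by 1.47 and 1.58, and the checkpoint kinase Ttk and Ccnb2 by 1.33 and 0.77. Ttk and Ccnb2 passed the minimum level through their KO cells, with rescue means of 0.0490 and 0.0472 RPKM. Ccnb1 was 0.201 ± 0.0616 RPKM in KO against 0.0328 ± 0.0323 RPKM in rescue cells (adjusted p = 0.157, limma). Mybl2, at 0.111 ± 0.0910 and 0.0165 ± 0.0178 RPKM (SD, n = 4 each), was under the minimum level and was not tested. Of the fibroblast markers, 0 were called, which for so few genes is near the 1.61% and 0.083% of all genes called higher and lower. The largest change among them was that of Pdgfra, named after its values were seen. It was 27.4 ± 8.10 RPKM in KO against 37.6 ± 9.07 RPKM in rescue cells (SD, n = 4 each), with a log2 change of -0.47 (adjusted p = 0.102, limma). Col1a1 and Fn1 had log2 changes of 0.02 and 0.07.

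**Figure D4:**
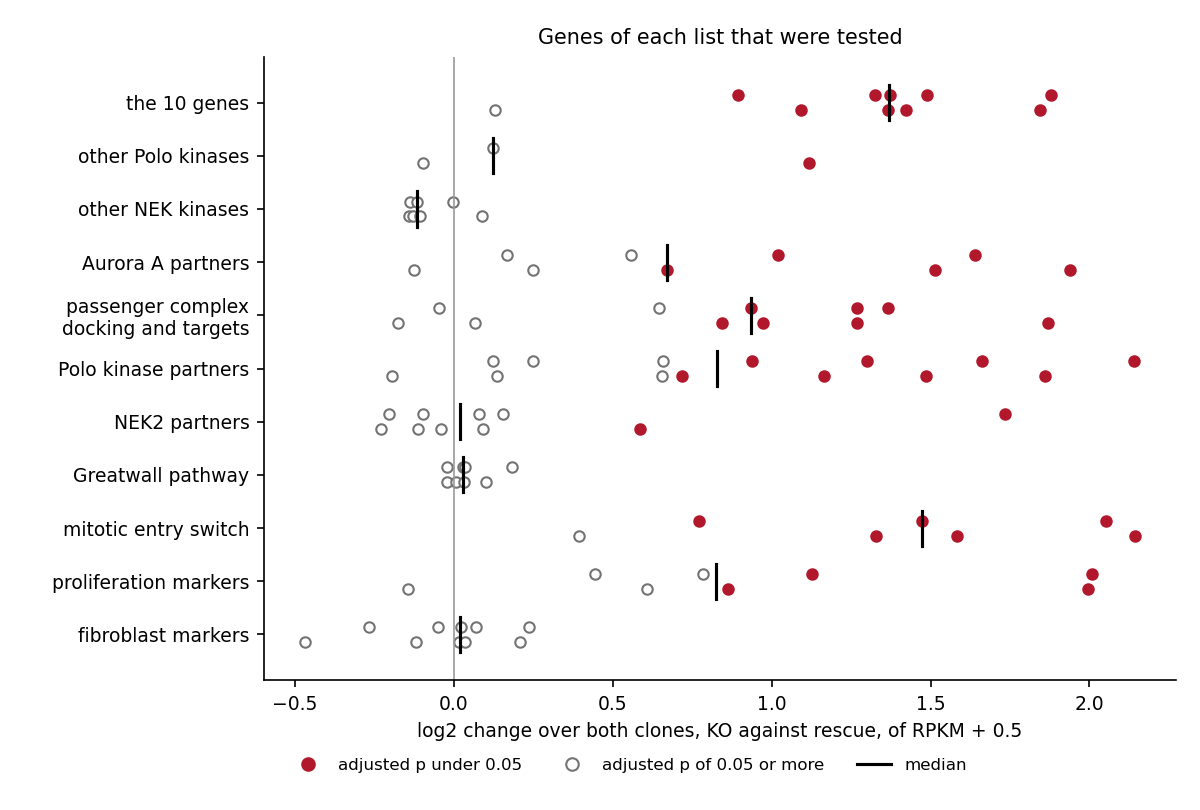
Log2 change over both clones of each tested gene (points) in the 10 mitotic kinases and partners and in each list, with filled points for an adjusted p under 0.05 and a black bar at the median. The medians are 1.37 for the 10 genes and 1.47 for the mitotic entry switch, and lie near 0 for the other NEK kinases, the NEK2 partners, the Greatwall pathway and the fibroblast markers.

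Outside these lists, the genes whose levels over the 8 replicates were most like the mean of the 10 genes were sought by Pearson's r. They were Kif18b (r = 0.999), Kif15 (0.999), Cenpe (0.996), Zwilch (0.995) and the processed pseudogene Gm7856 (0.994). Kif18b, Kif15 and Cenpe are mitotic kinesins and Zwilch is a kinetochore protein. Kif18b was 2.33 ± 0.108 RPKM in KO against 0.222 ± 0.108 RPKM in rescue cells, and Cenpe was 1.60 ± 0.160 and 0.196 ± 0.0654 RPKM (SD, n = 4 each). Among the 10 genes themselves, r with this mean was 0.925 to 0.990 for 9 and 0.527 for Bora. Each of them is part of the mean, which raises its r, unlike that of the genes outside. These values describe 8 points that fall into a KO and a rescue group and are no test.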

How the data were processed

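Ribosomal RNA-depleted total RNA of 10 libraries was fragmented and made into libraries with an Ovation FFPE kit. Per the paper's methods, adapters were removed with cutadapt 1.8.3 and reads mapped to mm10 with segemehl 0-2-0 (split reads). The authors counted them with rnacounter 1-5-2 against GENCODE vM5 and deposited RPKM values. Their edgeR test used a 5% false discovery rate after removing GSAT_MM entries and was not repeated, since counts were not used here. Picard 1.89 is named in the submitters' processing notes without a role.

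Libraries were grouped by their labels. Values were rescaled over 8523 genes (mean of at least 1 RPKM, above 0 in each library), and the technical replicates averaged. Genes averaging 0.1 RPKM or more were tested on log2(RPKM + 0.5) with limma 3.58.1 (eBayes with a trend) in R 4.3.3, two-sided, with Benjamini-Hochberg adjustment over all genes and a threshold of 0.05. The comparison over both clones had clone as a covariate, and each clone, their difference and the clones within a group were contrasts of a 4-group fit. KO and rescue replicates share numbers in the labels. The deviations of same-numbered replicates had a correlation of 0.477 (exon 4 clone) and 0.360 (exon 6 clone) over 7550 genes. With 2 replicates in a group, pairing them the other way gives these values with the opposite sign. Whether same-numbered replicates belong together is thus not settled, and a replicate block was fitted as an alternative. The fits were run on simulated data with known changes, the same spread for every gene and no clone effect. Such data check the code and do not bear on the low levels here. Positions came from GENCODE M21 (44585 of 45232 identifiers matched) and promoters from RefSeq. The promoter of Cdca8 is not reported here. Tables and figures were made in Python 3.11.15 (pandas 2.3.3, matplotlib 3.10.9).

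The 10 genes and the lists were chosen with earlier results of these data known. From each list, up to 6 called genes with the largest log2 change and up to 2 uncalled genes with the highest level were named, and outside the lists the 5 genes with the highest r. Named beyond this rule were Rrm2, Ccne2, Sgo1, Ercc6l, Thy1, Ensa, Arpp19 and Pdgfra. The alternatives were other pseudocounts (0.1 and 1), minimum levels, scalings, no trend, no clone covariate, each clone alone, the block, separate technical replicates and leaving out each replicate.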

Additional observations from a re-analysis of the deposited data

Results flagged for a closer look

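Of 20 groups of 4 replicates (10 genes in KO and in rescue cells), 1 held a replicate whose distance from the next exceeded the 95% critical value of Dixon's test. This was Tpx2 in rescue cells, where replicate 2 of the exon 4 clone had 0.425 RPKM and the next highest had 0.200 RPKM, a gap of 0.924 of the whole range. About 1 such group in 20 is flagged by chance. This replicate was still below each KO library of Tpx2, and Tpx2 was called over both clones in each of the 20 alternatives.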

How the results depend on the processing

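Over both clones, each of the 9 calls held in every alternative under which the gene was tested, with the largest adjusted p = 0.0462 for Plk1 with no minimum level (limma). With a minimum of 1 RPKM, 2 of the genes were tested and called, in both clones together and in each. In the exon 4 clone, the 5 calls became 0 with no minimum level, 1 with the RPKM as deposited and 0 with each clone alone, and 1 to 7 when a replicate was left out (7 without rescue replicate 1 of that clone, 1 without its KO replicate 1). The higher calls of all genes in that clone were 101, and became 8, 22 and 0 in the first 3 of these fits. In the exon 6 clone, the 8 calls became 3 with no minimum level, and 0 to 8 when a replicate was left out, while the 174 of all genes became 31 with no minimum level. Without KO replicate 1, KO replicate 2 or rescue replicate 1 of that clone, 0 of the 10 genes and 7, 0 and 0 of all genes were called higher, and without its rescue replicate 2, 4 of the 10 and 37 of all genes were. A clone with 1 replicate in a group rests on the spread of the other groups. Bora changed sign in the exon 6 clone when library 3 of each group was left out (-0.024), and stayed uncalled. Between clones, 0 of the 10 genes were called in every alternative. Over the other alternatives (a minimum of 1 RPKM aside), the higher calls were 3 to 6 (reported as 5) for the Aurora A partners, 5 to 8 (7) for the passenger complex list, 6 to 10 (8) for the Plk1 list, 1 to 2 (2) for the NEK2 partners, 5 to 7 (6) for the mitotic entry switch and 0 in each for the Greatwall pathway, with the lowest count of each at no minimum level. Of all genes over both clones, 271 were higher and 14 lower. The higher count was 171 with no minimum level, 93 with a minimum of 1 RPKM, 875 with the RPKM as deposited and 174 to 265 without a replicate. The lower count was 6 with no minimum level, 27 with the replicate block, 6 without the clone covariate, 6 without library 2 of each group of the exon 6 clone and 4 to 16 without a replicate. The replicate block could not be fitted for the clones compared within a group, and changed no call of the 10 genes beyond those given above. The cause of these changes was not tested. The depth is unknown, so that no counting error can be given for the low rescue levels.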
